A study of Mus musculus with 6 samples.

Results

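Fibroblast growth factor 23 (FGF23) and the vitamin D genes it is tied to were examined in dendritic cells grown from mouse bone marrow. The axis was defined by 9 listed gene symbols: Fgf23, its receptor Fgfr1 and co-receptor Kl, the nuclear receptors Vdr and Rxra, and the vitamin D enzymes Cyp27b1, Cyp24a1, Cyp27a1 and Cyp2r1. Each symbol was read through the annotation of the array platform, and where several probe sets with 1 symbol existed the one with the highest mean over the 6 arrays was taken. This gave a value for 8 of the 9 genes, out of 19938 genes read in the same way. Each of the 8 had 1 such probe set. Cyp24a1 was not analysed here. Fgf23 was put on the list because an earlier comparison of these same arrays had called it higher, so its difference between the groups is a description here and not a test.

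The cells came from C57BL/6J female mice that had been given 2000000 marrow cells of a congenic donor, B6.SJL-Ptprca (CD45.1 alloantigen). The shaved backs of donors in the UV-donor group had received a broadband ultraviolet dose of at most 8 kJ/m2, and donors of the naive-donor group were labelled naive; mice were 6 to 10 weeks old at irradiation, unless stated otherwise in the design text. Pellets of prostaglandin E2 under the skin are also described there, but no label ties them to either group. In both groups the marrow was cultured for 5 days with the growth factor GM-CSF and the cytokine IL-4, each at 10 ng/ml, and cells carrying CD11c were enriched to above 95%. Each group had 3 RNA preparations on 3 arrays, but whether each came from another recipient is not stated in the labels. A p-value here therefore reflects only the spread among preparations, which may be technical. In a bulk preparation, more cells that carry a transcript and more transcript per cell cannot be told apart.

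FGF23 is a hormone made mainly by osteocytes and osteoblasts of bone. It acts on kidney cells that carry an FGF receptor together with alpha-klotho, the product of Kl, where it lowers phosphate reuptake, restrains the enzyme that activates vitamin D (CYP27B1) and induces the enzyme that breaks it down (CYP24A1). Active vitamin D binds the vitamin D receptor VDR, which pairs with RXR on DNA and, among many targets, raises FGF23 in bone. Macrophages and dendritic cells also carry VDR, and can make active vitamin D with their own CYP27B1. Skin exposed to UVB is where vitamin D synthesis begins.

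Promoter sequence is shown for 3 genes with different places in this axis: the hormone Fgf23, the receptor Vdr and the activating enzyme Cyp27b1. Each window runs from 250 bases before to 50 after the RefSeq start in the mouse build GRCm38.p6, is written 5′ to 3′ on the gene's strand and has in capitals the letters that matched any motif searched. RefSeq windows were held for 7 of the 8 measured genes, with 8 windows in all.
Fgf23, chr6:127072652-127072951, plus strand: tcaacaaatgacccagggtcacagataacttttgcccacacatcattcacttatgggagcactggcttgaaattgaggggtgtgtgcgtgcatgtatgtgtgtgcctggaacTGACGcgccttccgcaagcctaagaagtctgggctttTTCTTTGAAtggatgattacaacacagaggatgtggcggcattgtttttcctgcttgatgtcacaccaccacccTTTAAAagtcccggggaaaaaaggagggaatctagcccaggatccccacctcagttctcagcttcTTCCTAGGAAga
Vdr, chr15:97908247-97908546, minus strand: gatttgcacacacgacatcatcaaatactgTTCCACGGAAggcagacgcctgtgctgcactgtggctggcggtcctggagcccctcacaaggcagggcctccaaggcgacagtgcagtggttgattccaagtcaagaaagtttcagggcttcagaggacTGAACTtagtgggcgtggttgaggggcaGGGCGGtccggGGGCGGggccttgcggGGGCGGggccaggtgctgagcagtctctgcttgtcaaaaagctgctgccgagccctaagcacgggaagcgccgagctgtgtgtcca
Cyp27b1, chr10:127047996-127048295, plus strand: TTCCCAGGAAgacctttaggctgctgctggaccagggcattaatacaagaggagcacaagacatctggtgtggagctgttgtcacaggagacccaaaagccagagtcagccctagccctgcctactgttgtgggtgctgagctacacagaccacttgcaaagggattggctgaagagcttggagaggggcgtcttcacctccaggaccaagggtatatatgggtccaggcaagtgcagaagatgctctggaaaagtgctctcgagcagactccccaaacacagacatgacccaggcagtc
The motifs, each sought on both strands, were the vitamin D receptor element (DR3, a direct repeat of the receptor's hexamer with 3 bases between), the single hexamer as AGGTCA or as AGTTCA, the NR4A site AAAGGTCA (which contains AGGTCA), the STAT5 form TTCNNNGAA, the STAT6 form TTCNNNNGAA, the CRE half-site TGACG, the GC box GGGCGG, the TATA box TATAAA, its variant TTTAAA and the hypoxia core ACGTG. DR3 was found in none of the 8 windows, and in 0.0396% of all 32851 RefSeq windows of the same length. In the Fgf23 window TTCNNNGAA matched as TTCTTTGAA at position -101 from the start, a form held by 8.3% of all windows, and TTCNNNNGAA as TTCCTAGGAA at position 39, a form held by 6.95%. The same window had TGACG at position -138 (20.8% of all windows) and TTTAAA at position -27 (13.2% of all windows). Its GC content was 49.0%, against 61.3% for Vdr and 54.3% for Cyp27b1. The Vdr window held GGGCGG at 3 places (a motif in 35.7% of all windows), TTCCACGGAA and, on the opposite strand, the hexamer AGTTCA (14.0% of all windows). The Cyp27b1 window held the single match TTCCCAGGAA. These matches are descriptions of letters, and no binding was measured.

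The arrays were alike, with Pearson correlations over all probe sets from 0.995 to 0.997 within groups. UV-donor replicate 1 stood farthest along the first principal component (48.6% of the variance), at 14.1 against 3.79 and 4.31 for the other UV-donor arrays and -10.8 to -2.01 for the naive-donor arrays. Of 10 listed dendritic cell markers, 9 passed the filter on dim genes, and Flt3 was the 1 below it. Itgax (CD11c) averaged 13.73 in UV-donor and 13.77 in naive-donor cells on the log2 scale. All 10 neutrophil and 8 macrophage markers listed passed the same filter, so passing it does not identify the cells. No scan date is given in the sources used here.

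Fgf23 was the axis gene with the clear separation between groups. Its log2 signal was 10.27, 10.37 and 10.22 on the 3 UV-donor arrays, against 9.62, 9.77 and 9.55 on the 3 naive-donor arrays. Each UV-donor array was above each naive-donor array, as for 12.4% of all tested genes. The spread within a group was far smaller than the distance between the groups. The means were 10.28 ± 0.07 in UV-donor cells and 9.65 ± 0.11 in naive-donor cells (SD, n = 3 each), a log2 difference of 0.64 (SE 0.07, 95% interval 0.48 to 0.80) or 1.56-fold. In the whole-table fit by limma, with Benjamini-Hochberg adjustment over 13956 tested genes, the adjusted p was 0.0199, and this value is what put Fgf23 on the list. Fgf23 was thus 1 of 5 tested members called, beside 0.172% of all tested genes called in either direction, and nothing is read from that count. With single arrays left out the difference ran from 0.59 to 0.70 and the limma adjusted p from 0.0354 to 0.122. The adjusted p was 0.079 without UV-donor replicate 2, 0.082 without UV-donor replicate 3, 0.119 without naive-donor replicate 1 and 0.122 without naive-donor replicate 3, so the call did not survive the loss of any of these, and a fit over all probe sets gave 0.271. With the replicate number as a block it was 0.069. It was 0.0354 without UV-donor replicate 1, the array farthest from the rest, with a difference of 0.65.

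**Figure D1:**
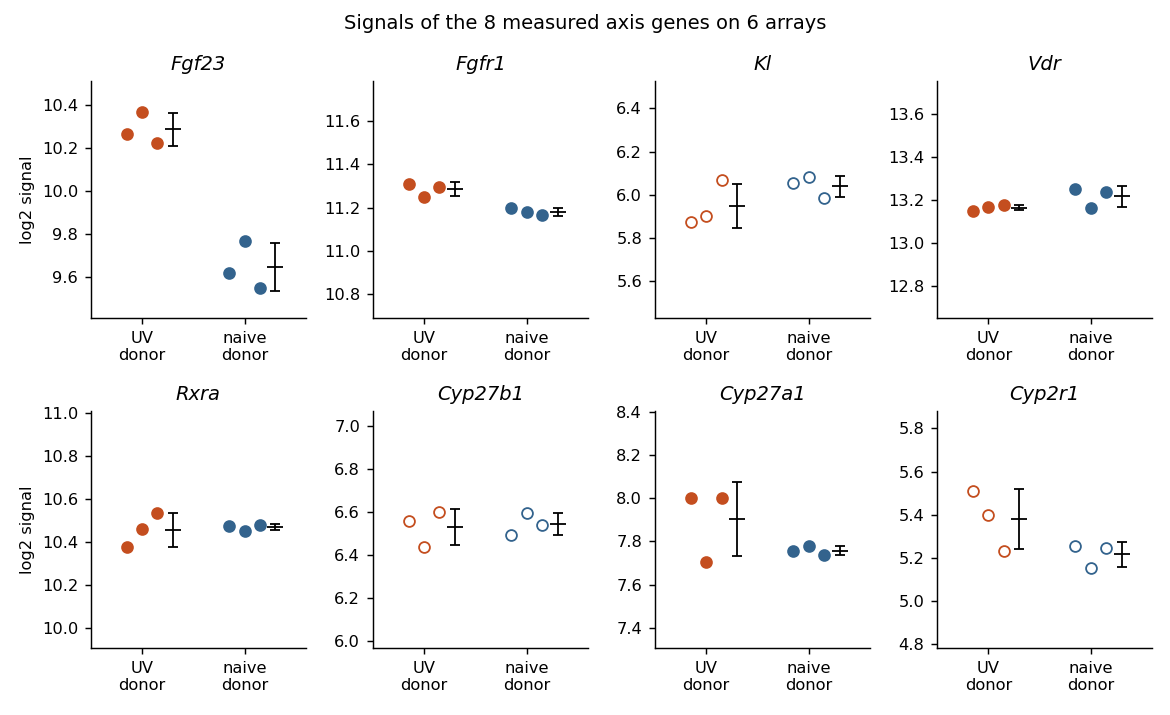
Log2 signal (vertical axis) of each measured axis gene on the 3 UV-donor arrays (left, orange) and the 3 naive-donor arrays (right, blue), with all panels spanning the same log2 range; bars are mean ± SD and open circles mark genes below the filter on dim genes. Fgf23 separates the groups at 10.28 and 9.65, Fgfr1 does so by 0.11, and the other 6 genes overlap.

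Fgfr1, the FGF receptor through which FGF23 mainly signals, had slightly higher values in UV-donor cells and did not pass the test. Its log2 signal was 11.31, 11.25 and 11.30 in UV-donor cells, against 11.20, 11.18 and 11.16 in naive-donor cells. The groups did not overlap, which was also so for 21.8% of all tested genes. The difference was 0.11 (SE 0.04, 95% interval 0.003 to 0.21, limma adjusted p = 0.317, unadjusted p = 0.045), where 15.1% of all tested genes had an unadjusted p under 0.05. It stayed between 0.093 and 0.12 with single arrays left out.

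Kl encodes alpha-klotho, the co-receptor that gives FGF receptors their high affinity for FGF23. Its values were 5.87, 5.90 and 6.07 in UV-donor cells, against 6.05, 6.08 and 5.98 in naive-donor cells. These lie below the filter on dim genes, the 30th percentile of mean signal over all genes (6.58 on the log2 scale), and the files give no detection call. The groups overlapped, and the log2 difference was -0.091 (95% interval -0.24 to 0.057, limma adjusted p = 0.571 in the fit with no filter).

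The vitamin D receptor Vdr was well above that filter and nearly equal in both groups. Its log2 signal was 13.15, 13.17 and 13.18 in UV-donor cells, against 13.25, 13.16 and 13.24 in naive-donor cells. The groups overlapped, and the difference was -0.053 (95% interval -0.16 to 0.055, limma adjusted p = 0.626). Rxra, the retinoid X receptor that pairs with VDR on DNA, had 10.38, 10.46 and 10.54 in UV-donor cells, against 10.48, 10.45 and 10.48 in naive-donor cells. Its difference was -0.011 (95% interval -0.13 to 0.11, limma adjusted p = 0.94), and the sign turned with centred array medians, array weights or without UV-donor replicate 1. The UV-donor values of Rxra were more widely spread (SD 0.079) than the naive-donor values (SD 0.015).

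The vitamin D enzymes gave no call. Cyp27a1, a mitochondrial sterol hydroxylase that can also carry out the first hydroxylation of vitamin D, had 8.00, 7.70 and 8.00 in UV-donor cells, against 7.76, 7.78 and 7.74 in naive-donor cells. UV-donor replicates 1 and 3 were above all naive-donor arrays and replicate 2 was below them all. The difference was 0.15 (95% interval -0.042 to 0.33, limma adjusted p = 0.432). Without UV-donor replicate 2 it was 0.24 (limma adjusted p = 0.189), and without UV-donor replicate 1 or 3 it was 0.096 or 0.095.

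Cyp2r1, the microsomal enzyme that makes most of the circulating vitamin D prohormone, had 5.51, 5.40 and 5.23 in UV-donor cells, against 5.26, 5.15 and 5.24 in naive-donor cells. The groups overlapped through UV-donor replicate 3, and all 6 values were below the filter on dim genes. The difference was 0.16 (95% interval -0.0088 to 0.33, limma adjusted p = 0.401 in the fit with no filter). Cyp27b1, the hydroxylase that makes the active hormone, had 6.56, 6.44 and 6.60 in UV-donor cells, against 6.49, 6.59 and 6.54 in naive-donor cells. Its mean over all arrays, 6.54, was just under the filter of 6.58, and among the members it lay closest to it, while Cyp27a1 at 7.83 was the nearest above. The difference of -0.011 (95% interval -0.15 to 0.13, limma adjusted p = 0.955 in the fit with no filter) turned sign with centred medians, quantile normalization and cyclic loess. Of the 8 measured members 5 passed the filter and 3 (Kl, Cyp27b1 and Cyp2r1) did not, and none of the 3 was called with the filter lifted, where 0.115% of 19938 genes were called. The groups of these 3 overlapped, whereas 19.6% of the 19938 genes had groups that did not.

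**Figure D2:**
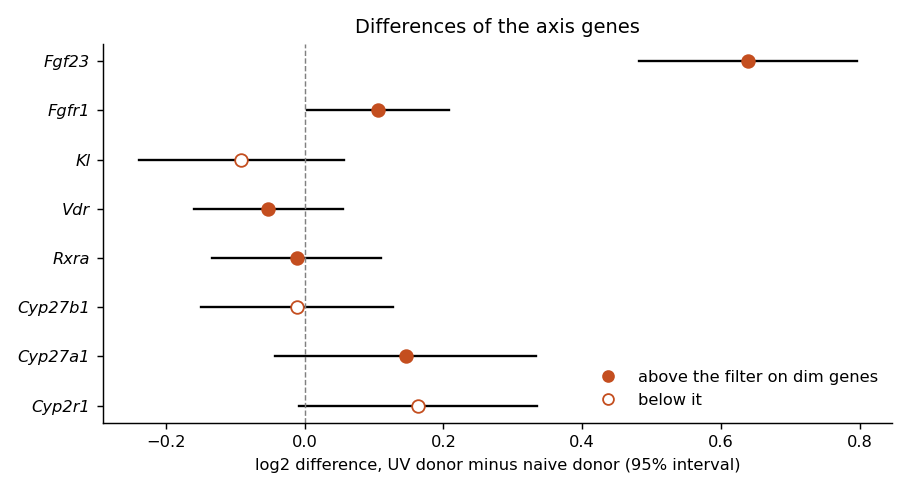
Log2 difference, UV-donor minus naive-donor (horizontal axis), with its 95% interval from limma for each measured axis gene; filled circles passed the filter on dim genes and open circles did not. Fgf23 lies at 0.64, the interval of Fgfr1 starts just above 0 at 0.003, and the intervals of the other 6 genes include 0.

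The rest of the pathway was read from 10 lists with 131 genes, chosen with earlier results of these data known. Of these, 115 were measured and 93 passed the filter. Limma called none of the 93 after adjustment (0 higher and 0 lower), while 8 had an unadjusted p under 0.05 with higher values and 5 with lower values in UV-donor cells. That is 8.6% and 5.38%, beside 9.6% and 5.49% of all tested genes. Groups did not overlap for 11 genes with UV-donor values above and 9 with UV-donor values below, which is 11.8% and 9.68% beside 12.4% and 9.37% of all tested genes. The median log2 difference was -0.038 over the lists and 0.0016 over all tested genes. These shares lay close to those of all tested genes.

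Among FGF receptor early-response and feedback genes, 4 of 16 tested genes had higher values at an unadjusted p under 0.05 and 1 had lower values, with none called; over all tested genes those shares were 9.6% and 5.49%. With so short a list nothing is read from the count. The 4 were Etv5, an ETS factor induced by ERK signalling, Dusp4 and Dusp6, phosphatases that switch off MAP kinases, and Myc, the growth-promoting transcription factor. Dusp6, a widely used readout of FGF receptor signalling, had a log2 signal of 10.63, 10.92 and 10.86 in UV-donor cells, against 10.58, 10.47 and 10.44 in naive-donor cells. Its difference was 0.31 (SE 0.08, limma adjusted p = 0.163). Etv5 had 10.72, 10.70 and 10.70 in UV-donor cells, against 10.46, 10.58 and 10.42 in naive-donor cells, a difference of 0.22 (limma adjusted p = 0.152). Both genes had groups that did not overlap, as did Dusp4 (0.37), Myc (0.27) and Dusp5 (0.16), and as did 12.4% of all tested genes with UV-donor values above. Other ETS factors of the list did not have higher values: Etv1 differed by -0.25 (limma adjusted p = 0.338), the lowest value of the list, and Etv4 by -0.023. The immediate-early factor Egr1 went the other way in value, at -0.22 (limma adjusted p = 0.319), and the tested Sprouty and Spred inhibitors lay between -0.093 for Spred2 and 0.056 for Spry4. The list's median was 0.020, with 9 of 16 values higher and 7 lower. It was 0.052 without UV-donor replicate 1 and 0.055 with centred medians. Markers of dividing cells had higher values on these same arrays, with UV-donor values above naive-donor values for all 9 tested markers of that list, beside 12.4% of all tested genes, and a median difference of 0.52; none of the 9 was called. Their part in the early-response values was not tested.

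No other FGF ligand was called. Of 21 listed, 15 passed the filter, and 13 of these had lower and 2 higher values in UV-donor cells, with a median of -0.059. Fgf15, the ileal hormone of the same endocrine subfamily, differed by -0.20 (limma adjusted p = 0.255), Fgf22 by -0.15 and Fgf11 by 0.073. Fgf21, the remaining endocrine ligand, differed by -0.063 (limma adjusted p = 0.666). As deposited, dim genes in general had lower values in UV-donor cells: the median was -0.048 in the lowest quartile of tested genes by mean signal, which held 11 of the 15 ligands. That median was -0.014 with centred medians or quantile normalization and -0.011 with cyclic loess. The ligands' median was -0.025, -0.042 and -0.030 with these 3 scalings in turn. By value 12, 13 and 13 of the 15 ligands were lower in the same order. The share lower in that quartile was 70.9% as deposited and 56.3%, 56.1% and 55.4% with the 3 scalings. The part of signal level in the ligand values was not tested. Fgfr4 (-0.075), the receptor-like Fgfrl1 (-0.062) and Fgfr3 (-0.038) had no call either. Fgfr2 and beta-klotho, Klb, lay below the filter, at 6.00 and 5.96 in UV-donor cells, against 6.05 and 5.94 in naive-donor cells.

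Genes that process or modify the FGF23 protein gave no call among the 4 tested. Galnt3, which adds the sugar that protects FGF23 from cleavage, had 8.27, 8.15 and 8.19 in UV-donor cells, against 8.06, 8.19 and 7.74 in naive-donor cells, a difference of 0.21 (limma adjusted p = 0.39). The groups overlapped through naive-donor replicate 2. Fam20c, the kinase that opens FGF23 to cleavage, differed by -0.099 (limma adjusted p = 0.374) with UV-donor values below, as for 9.37% of all tested genes. The proprotein convertases Furin and Pcsk5 differed by -0.029 and -0.10. Phex, Dmp1 and Mepe, which limit FGF23 or mark osteocytes in bone, were below the filter. In receptor signalling the docking protein Gab1 had the smallest p of 11 tested genes. Its signal was 9.54, 9.47 and 9.53 in UV-donor cells, against 9.69, 9.67 and 9.78 in naive-donor cells, a difference of -0.20 (limma adjusted p = 0.157). The adaptor Grb2 differed by 0.11 and the exchange factor Sos1 by -0.12.

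None of the 8 tested vitamin D receptor targets was called. At an unadjusted limma p under 0.05, 2 had lower and 0 higher values, beside 5.49% and 9.6% of all tested genes. For 3 the groups did not overlap with UV-donor values below, beside 9.37% of all tested genes. With so short a list nothing is read from these counts. By value 7 were lower and 1 higher in UV-donor cells, where 50.6% of all tested genes had higher values. The median was -0.11 beside 0.0016 over all tested genes. The split of 7 and 1 was the same with centred medians, quantile normalization and cyclic loess. Many of these targets are known from gut, kidney or bone. Atp2b1, a plasma membrane calcium pump, had 12.54, 12.72 and 12.63 in UV-donor cells, against 12.90, 12.81 and 12.77 in naive-donor cells, a difference of -0.19 (SE 0.06, limma adjusted p = 0.219). The calcium-binding protein S100g differed by -0.17 (limma adjusted p = 0.298), the gluconeogenic enzyme Fbp1 by -0.093 and the endotoxin co-receptor Cd14 by -0.12 (limma adjusted p = 0.524). Of the 8, 3 were in that dimmest quartile of tested genes, where 70.9% had lower values. Outside it Atp2b1, Fbp1, Cd14 and Tnfsf11 had lower values and Lrp5 (0.059) a higher one. Fbp1 averaged 13.97 in UV-donor and 14.06 in naive-donor cells, and Cd14 11.59 and 11.71. In the brightest quartile 51.2% of genes had lower values. The part of signal level in the split was not tested. Cyp24a1, the target most used as a readout of VDR activity, was not analysed here.

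Cofactors and other vitamin D genes gave no call. The coactivator Ncoa1 differed by -0.15, Rxrb, a second RXR, by 0.11 (limma adjusted p = 0.474), Snw1 by 0.084 and Pdia3, a proposed membrane receptor for active vitamin D, by 0.021. Dhcr7, the sterol reductase that uses up the vitamin D precursor 7-dehydrocholesterol to make cholesterol, had 9.99, 9.60 and 9.64 in UV-donor cells, against 9.31, 9.54 and 9.35 in naive-donor cells. The groups did not overlap, as for 12.4% of all tested genes with UV-donor values above. UV-donor replicate 1 was highest, and the difference was 0.34 (SE 0.11, limma adjusted p = 0.212). Fdx1, the ferredoxin that feeds electrons to mitochondrial P450 enzymes, differed by 0.017. The phosphate carriers Slc34a1 (-0.10), Slc34a3 (-0.067) and Slc20a1 (-0.14) had no call.

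**Figure D3:**
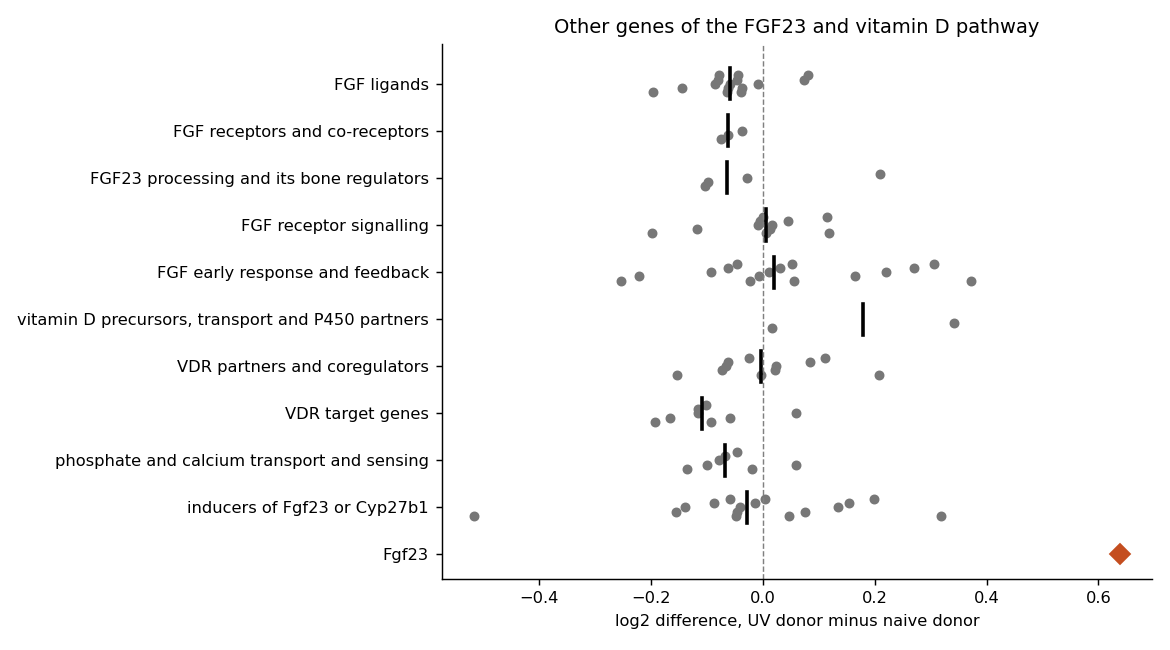
Log2 difference, UV-donor minus naive-donor (horizontal axis), of each tested gene in the 10 pathway lists (grey points, displaced vertically for visibility), with list medians as black bars and Fgf23 as an orange diamond. Fgf23, listed because this comparison had called it, lies at 0.64, beyond all points to the right, the next being Dusp4 at 0.37. The median bars lie between -0.11 and 0.18, the last of a list of 2 tested genes.

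Known inducers of Fgf23 in bone, or of Cyp27b1 in macrophages, had 2 of 16 tested genes with higher values at an unadjusted p under 0.05 and none lower, near the 9.6% of all tested genes. By value 7 were higher and 9 lower. Tnf, an inflammatory cytokine, had 8.64, 8.85 and 8.75 in UV-donor cells, against 8.44, 8.35 and 8.50 in naive-donor cells, a difference of 0.32 (limma adjusted p = 0.127). Il1b, another, had 10.06, 10.11 and 10.16 in UV-donor cells, against 9.88, 9.93 and 9.92 in naive-donor cells, a difference of 0.20 (limma adjusted p = 0.153). Neither passed after adjustment, and both had groups that did not overlap, as for 12.4% of all tested genes with UV-donor values above. The cytokine Il6 differed the other way and by the most in the list, at -0.52, with widely spread, overlapping groups (8.03 ± 0.61 in UV-donor cells and 8.55 ± 0.62 in naive-donor cells, SD, n = 3 each, limma adjusted p = 0.521). Hypoxia factor Hif1a differed by -0.14 with UV-donor values below, as for 9.37% of all tested genes. Tlr2 differed by 0.15, Tlr4 by -0.15, the erythropoietin receptor Epor by -0.087 and the interferon gamma receptor Ifngr1 by -0.014.

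Cells known as sources of FGF23, and then other listed cells, were examined through their markers. Of 7 measured markers of osteoblasts and osteocytes, 4 (Dmp1, Ibsp, Phex and Sp7) were below the filter. The other 3, led by Col1a1 (-0.10) and Sost (-0.10), had lower values in UV-donor cells. The mean log2 signal over the 7 ran from 6.51 to 6.58 in UV-donor cells and from 6.55 to 6.63 in naive-donor cells. Erythroid precursors can also make FGF23. Their 5 tested markers, led by Gata1 (-0.17) and Tfr2 (-0.099), all had lower values as deposited, and 4 of 5 did with any of the 3 rescalings; the mean over 7 measured markers ran from 6.56 to 6.61 in UV-donor cells and from 6.62 to 6.66 in naive-donor cells. Among the other listed cells, neutrophil markers had higher values on the same arrays in 8 of 10 cases. In that list 2 of 10 tested markers, Ltf (0.54) and S100a8 (0.77), were called higher by limma, beside 0.172% of all tested genes. UV-donor values lay above without overlap for 7 of the 10, beside 12.4% of all tested genes. The groups overlapped for Mpo (0.044), Elane (-0.035) and Camp (-0.019). The list mean ran from 8.54 to 8.69 in UV-donor cells and from 8.09 to 8.29 in naive-donor cells. Macrophage markers went both ways in value, with 5 of 8 higher and 3 lower: C1qb (0.63) was called, while Adgre1 at 0.51 and Cd5l at -0.996, the greatest difference of the list, were not (limma adjusted p = 0.0627 for each). Their list mean ran from 8.94 to 9.10 in UV-donor cells and from 8.89 to 8.93 in naive-donor cells. In the dendritic cell list Cd209a (0.59) was called and Ciita (0.49) was not, with a mean from 11.47 to 11.54 in UV-donor cells and from 11.30 to 11.37 in naive-donor cells. The progenitor markers Cd34 (0.76) and Gata2 (0.12) and the eosinophil markers Prg2 (0.75) and Siglecf (0.19) had higher values without a call. The groups of Siglecf overlapped. Only 3 of the 8 measured markers of eosinophils, mast cells and basophils were tested, and the third, Tpsb2, differed by 0.010. Ccr3, Cpa3, Epx, Fcer1a and Mcpt8 were below the filter. Among dividing-cell markers Aurka (0.53) and Prc1 (0.62) led. Of 7 measured lymphocyte markers only 2 were tested, Cd8a (-0.11) and Cd3e (0.066), and the others were below the filter. These calls are part of the 24 over the whole table. That number was 0 with the replicate block and over all probe sets, 1 without UV-donor replicate 2, UV-donor replicate 3 or naive-donor replicate 1, and 3 without naive-donor replicate 3. The part of any of these cells in the Fgf23 signal was not tested.

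The genes most like Fgf23 over the 6 arrays were found by the mean absolute gap between log2 values centred on each gene's mean. Il2ra, the alpha chain of the interleukin-2 receptor, was closest with a gap of 0.037, against a median gap of 0.32 over all tested genes. It had 9.38, 9.45 and 9.23 in UV-donor cells, against 8.74, 8.90 and 8.69 in naive-donor cells. As for Fgf23, replicate 2 was the highest and replicate 3 the lowest array within each group. Next came Pglyrp1, a peptidoglycan-binding protein of neutrophil granules (gap 0.057), Il1r2, the decoy receptor for interleukin-1 (0.065), Adgre1, a macrophage surface receptor (0.066), and Cd209a, a lectin of dendritic cells (0.068). No other member of the axis was among them. Of the members, Cyp2r1 was nearest at 0.24, followed by Cyp27a1 at 0.25 and Fgfr1 at 0.27, while Vdr was at 0.35 and Kl at 0.37. All these arrays share the group difference, so likeness over 6 arrays is mostly likeness in that difference.

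**Figure D4:**
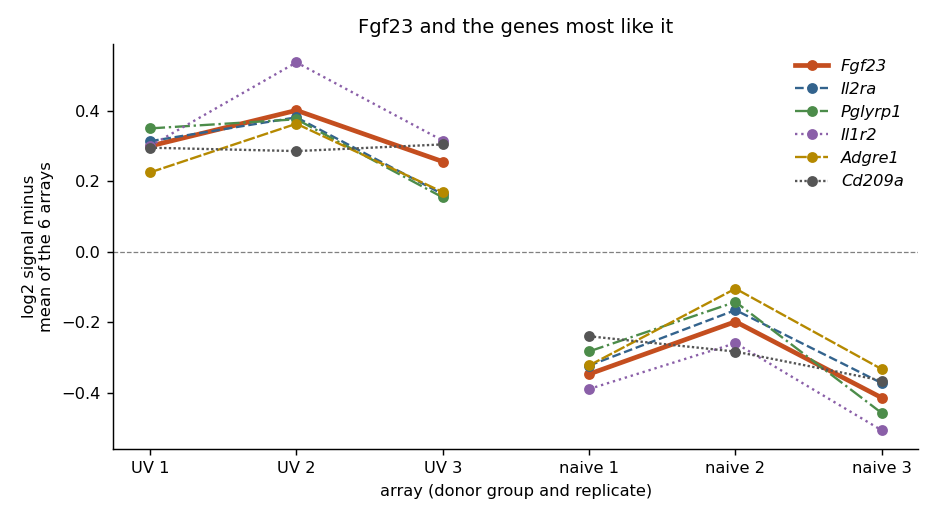
Log2 signal minus the gene's mean over the 6 arrays (vertical axis) on each array (horizontal axis, UV-donor arrays left, naive-donor arrays right) for Fgf23, thick orange line, and the 5 genes most like it. In Fgf23 the values run from 0.26 to 0.40 on UV-donor arrays and from -0.41 to -0.20 on naive-donor arrays, and lines join replicates only to help follow a gene.

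None of the genes beside Fgf23 on chromosome 6 was called. In the RefSeq gene order of GRCm38.p6, Fgf6 lies on one side and Tigar, which encodes a fructose bisphosphatase that slows glycolysis, on the other. Tigar had 9.50, 9.70 and 9.61 in UV-donor cells, against 9.66, 9.64 and 9.64 in naive-donor cells, with a log2 difference of -0.039 (95% interval -0.17 to 0.094, limma adjusted p = 0.789). Fgf6 was below the filter and differed by -0.011, and Ccnd2, cyclin D2, differed by 0.0012. The 10 nearest protein-coding genes, 5 on each side, were read. Rad51ap1, a DNA repair factor, had non-overlapping groups, at 7.47, 7.09 and 7.12 in UV-donor cells, against 6.79, 6.96 and 6.91 in naive-donor cells, a difference of 0.34 (limma adjusted p = 0.197). UV-donor values lay above without overlap for 12.4% of all tested genes. The differences of the remaining 6 neighbours were from -0.047 for Cracr2a to 0.094 for Parp11, with D6Wsu163e at -0.028, and with Dyrk4, Akap3 and Prmt8 below the filter.

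**Figure D5:**
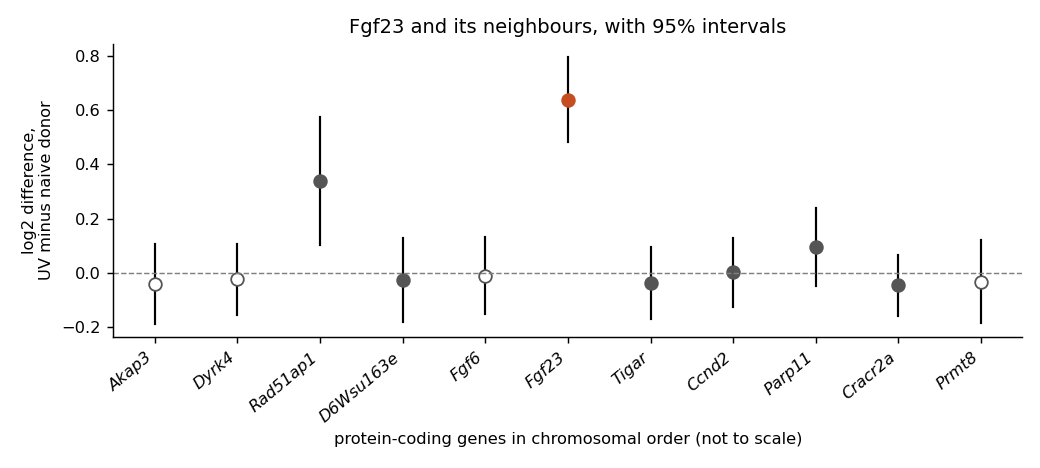
Log2 difference, UV-donor minus naive-donor (vertical axis), with its 95% interval for Fgf23 (orange) and the 5 protein-coding genes on each side in chromosomal order (horizontal axis, not to scale); open circles lie below the filter on dim genes. Fgf23 is at 0.64, Rad51ap1 at 0.34, and the intervals of the other 9 genes include 0.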

How the data were processed

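Values were log2 signals of whole-transcript arrays, 1 per probe set, deposited for 6 arrays and used with no further normalization. Per the submitters' processing notes the authors used RMA, with the packages oligo and limma; versions and the summary level are not given in the sources used here. The 21789 probe sets with a single symbol, of 35556, were used; 1621 with several symbols and 12146 unlisted ones were not. Symbols came from the platform annotation, checked by identifier against RefSeq genes of GRCm38.p6. A filter at the 30th percentile of mean signal left 13956 genes.

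The comparison, UV-donor minus naive-donor, used limma 3.58.1 under R 4.3.3, two-sided, with Benjamini-Hochberg adjustment over all tested genes, and a gene was called below 0.05. The number of arrays limits the precision, and an exact permutation test of 3 against 3 cannot go below p = 0.1. On simulated arrays of these 13956 genes the fit recovered 60.6% of genes changed by 0.3 and 99.2% of those changed by 0.6 (log2), and 6.17% of the calls were false. The simulated noise was independent between genes and arrays, with the fitted gene variances and 200 changed genes. These shares therefore do not give the recovery on the real arrays, where C1qb (0.63) was called and Prc1 (0.62) was not. Members below the filter were read from the fit with no filter. The members, lists and naming rule (all members, the 3 genes of smallest p per pathway list, the 2 per marker list, a fixed set, the 5 genes most like Fgf23 and its neighbours) were chosen with earlier results of these data known. Listed genes without a single-symbol probe set were not analysed here. Genes named besides (Dusp5, Spred2, Spry4, Etv1, Etv4, Fgf21, Il6, Tlr4, Cd5l and single list members) were chosen after their values were seen. Alternatives tried were a replicate block, other filters, scalings, priors and weights, all probe sets, and leaving out each array in turn.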

Additional observations from a re-analysis of the deposited data

How the results depend on the processing

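Fgf23 kept a higher value in UV-donor cells under every alternative run, with log2 differences from 0.59 to 0.70. The members called numbered 1 as reported, 0 when all 35556 probe sets were tested (limma, with unadjusted p under 0.05 for 1801 higher and 1708 lower probe sets), and 0 to 1 with single arrays left out. The genes called over the whole table numbered 24 as reported, 43 with centred array medians, 45 with an intensity trend and robust prior, 43 with array weights, 0 with all probe sets, and 1 to 32 with single arrays left out. Pathway genes called numbered 0 throughout. The sign of Rxra turned with centred medians (0.023), array weights (0.021) and without UV-donor replicate 1 (0.028), and with single arrays left out its difference ran from -0.050 to 0.028. That of Cyp27b1 turned with centred medians (0.023), quantile normalization (0.033), cyclic loess (0.037) and without UV-donor replicate 2 (0.036) or naive-donor replicate 2 (0.015), with a range from -0.044 to 0.036 when single arrays were left out; it was never called. The causes were not tested. Over all pathway genes 62.4% had lower values as deposited, where 50.6% of all tested genes had higher values. The share lower was 64.5% with quantile normalization, 65.6% with cyclic loess, 67.7% without UV-donor replicate 1 and 51.6% with centred medians. Centring raised all tested genes as well, to a median of 0.036, beside -0.0031 for the pathway genes. With centring, the share lower was 56.3%, 29.3%, 19.7% and 29.7% across quartiles of tested genes by mean signal, from the dimmest to the brightest. Most tested genes thus had higher values with centring. The share lower stayed greater among pathway genes, at 51.6%, than over all tested genes. The part of signal level in this was not tested.

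Both groups use the same replicate numbers, yet over all tested genes arrays with 1 number did not deviate together (correlations of deviations from the group means -0.13, -0.22 and 0.15). In Fgf23, replicate 2 was highest and replicate 3 lowest in both groups. A fit with the replicate block gave 0 calls over all genes and 0 among members by limma (unadjusted p under 0.05 for 1286 higher and 666 lower genes), and Fgf23 had an adjusted p of 0.069. The block left the Fgf23 difference at 0.64 and its SE went from 0.0683 to 0.0495. Its unadjusted limma p was 1.43e-05 with the block and 1.18e-05 without. The files give no background level, so how far signal over background limits Kl, Cyp27b1 and Cyp2r1 is not known.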
